A study of Homo sapiens with 8 samples.

Results

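The first response of MDA-MB-453 cells to an androgen was read from 4 of 8 expression arrays: 2 from cells given 5α-dihydrotestosterone (DHT) for 4 h and 2 from cells given vehicle. MDA-MB-453 is an established human breast cancer line that lacks the estrogen receptor and carries the androgen receptor. All groups first spent 3 days in medium free of phenol red, with 5% serum stripped by charcoal and dextran so that it is poor in steroids, and then received vehicle or 10 nM DHT. The other 4 arrays held cells after 16 h and 48 h of DHT, with 2 arrays each, and were used for the spread between replicates and for the later course of the early genes. The labels call the 2 arrays of a group biological replicates and do not say that they came from separate days, so the p-values measure the spread between these arrays. No time is given for the vehicle arrays, so time in culture and DHT cannot be told apart. The response was described over 19775 genes, taking for each gene, from the probe sets that name it alone, the brightest one on average across the 8 arrays.

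DHT is the most potent natural androgen. It binds the androgen receptor, a nuclear receptor held in the cytoplasm by chaperones, and the bound receptor moves to the nucleus, where it sits as a dimer on hormone response elements, often far from the gene it acts on. Within the first hours, before new proteins have accumulated, changes in RNA tend to lie close to the receptor's own action, and later changes add those of the factors it has switched on. In breast cells of the luminal and apocrine kinds the receptor shares many sites with the pioneer factor FOXA1, and its target genes overlap with those of the glucocorticoid receptor, which reads the same DNA element.

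The arrays were well matched, with median log2 signals between 7.59 and 7.63. DHT 16 h replicate 2 stood apart in RNA quality. Its actin probe sets differed by 1.52 log2 units between the 3′ and the 5′ end, against 0.20 to 0.95 on the other 7 arrays. That array enters the comparison at 4 h through the spread and through the choice of each gene's brightest probe set. Luminal and apocrine breast markers were bright, with 7 of the 8 measured between 12.4 and 14.5 on the vehicle arrays. The eighth, PIP, stood at 9.97 and 10.05, and ESR1, the estrogen receptor gene, stood at 8.23 and 8.45, near the median gene. In bulk RNA, fewer cells of a kind and less RNA per cell cannot be told apart.

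After 4 h the response was small in extent. At an adjusted p below 0.05 in limma, 21 genes were higher than with vehicle, or 0.106% of the genes tested, and 14 were lower, or 0.0708%. Without adjustment, 703 genes were higher and 847 lower at p below 0.05. The log2 changes of all genes had an SD of 0.15, and 85.8% lay within 0.2 of 0 and 99.4% within 0.5. For scale, the difference between the 2 vehicle arrays had an SD of 0.18 and that between the 2 DHT 4 h arrays 0.15, although these are differences of single arrays and not of means. Both DHT arrays lay above both vehicle arrays in 19.4% of all genes and below them in 20.8%, so non-overlap alone marks little with 2 arrays a group.

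Large changes leaned to the higher side at the very top. A change of 2-fold or more was reached by 5 genes upward (AQP3, CLDN8, MYC, FOLR1 and NFKBIA) and by PDE4B alone downward. At 1.5-fold or more, 31 genes were higher and 40 lower. For scale, the 2 vehicle arrays differed by as much in 105 genes and the 2 DHT 4 h arrays in 19. These too are differences of single arrays, and no direction is read from the counts. In each of the 31 and the 40 genes the 4 arrays were apart, which is largely set by picking large changes on these same arrays. Of them, 18 of the 31 and 14 of the 40 passed the adjusted test. The called changes ran from 0.55 to 2.09 among the higher genes, with a median of 0.75, and from -0.59 to -1.24 among the lower genes, with a median of -0.66. Genes were also ranked by mean signal over all 8 arrays. None of the calls fell among the dimmest 3955 genes, and the brightest 3955 held 13 of the 21 higher and 4 of the 14 lower genes. That mean includes the DHT arrays, so a rise or fall itself shifts a gene's rank, and these counts do not compare higher with lower genes. On the vehicle arrays the median signal was 9.83 for the higher genes, 10.28 for the lower genes and 8.43 for all genes.

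**Figure D1:**
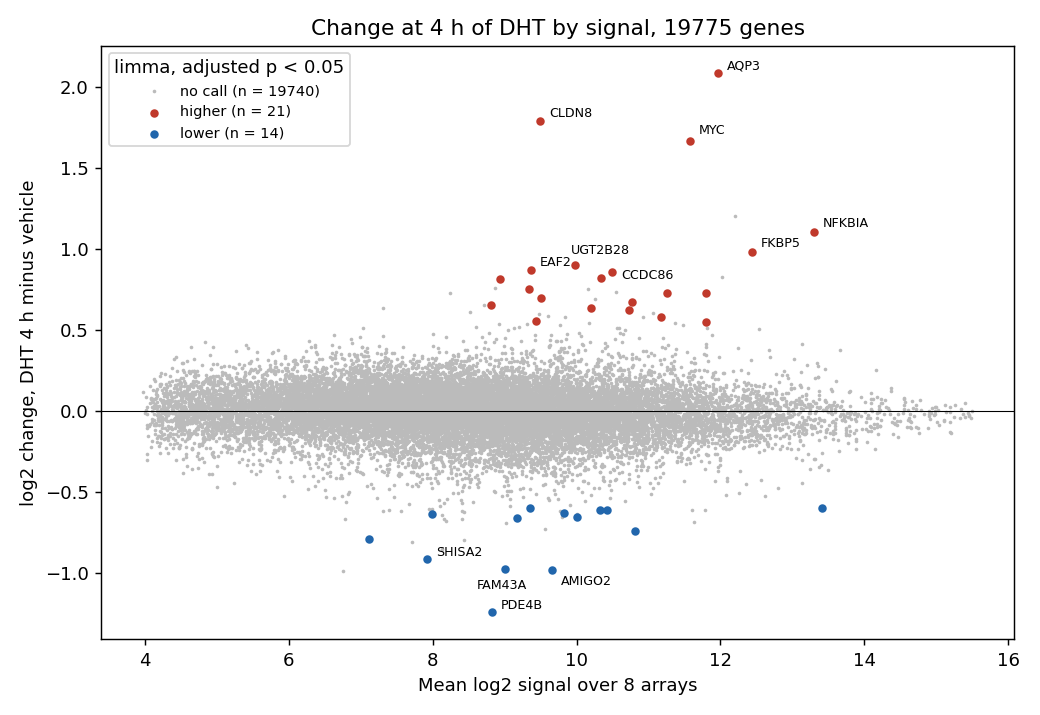
Each point is 1 of 19775 genes, placed by its mean log2 signal over 8 arrays (x) and its log2 change from vehicle to 4 h of DHT (y); red points are the 21 genes called higher and blue points the 14 called lower by limma, and grey points had no call. AQP3, CLDN8 and MYC lie above 1.5, PDE4B is the lowest point, and the bulk of the genes lies within 0.5 of the zero line.

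The strongest rise was that of AQP3, a membrane channel for water and glycerol. Its log2 signal was 8.43 and 8.38 on the vehicle arrays and 10.43 and 10.55 on the DHT arrays. Both DHT arrays lay far above both vehicle arrays, a change of 2.09 ± 0.10 (log2, SE, n = 2 per group) or 4.25-fold, with limma's adjusted p = 8.2e-06. Its other 2 probe sets changed by 0.50 and 0.40, in the same direction but far less, with unadjusted p of 0.0214 and 0.0133. CLDN8, a claudin of tight junctions, read 7.32 and 7.22 with vehicle and 9.24 and 8.89 with DHT. The DHT arrays were again well above, and further from each other than the vehicle arrays were. The change was 1.79 ± 0.13 or 3.46-fold, with an adjusted p of 0.000216.

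MYC, the transcription factor that drives growth and ribosome production, was the third. It read 10.54 and 10.55 with vehicle and 12.20 and 12.22 with DHT, so replicates were nearly equal and the groups far apart. The change was 1.67 ± 0.13 or 3.18-fold, with an adjusted p of 0.000244. Its relative MYCN moved the other way, as described with the lower genes. Of the 12 measured genes of the MYC and MAX network, these 2 were called and the other 10 were not, and the median change of the list was 0.03. NFKBIA, which encodes the inhibitor that keeps NF-kB in the cytoplasm, read 12.08 and 12.24 with vehicle and 13.30 and 13.23 with DHT. It was bright already in the absence of androgen and rose by 1.11 ± 0.10 or 2.15-fold, with an adjusted p of 0.000561. Its other probe set, much dimmer, changed by 0.54 and had no adjusted call. NFKBIA was the only call among 23 NF-kB factors and targets, whose median change was 0.00.

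Among genes of steroid action, FKBP5 encodes a co-chaperone of steroid receptors and is a classical target of androgens, glucocorticoids and progestins. Its signals were 10.81 and 10.67 with vehicle and 11.72 and 11.72 with DHT. The DHT arrays were indistinguishable from each other and about 1 log2 unit above vehicle, a change of 0.98 ± 0.10 or 1.98-fold, with an adjusted p of 0.00315. Its other 2 probe sets changed by 0.92 ± 0.22 and 0.87 ± 0.56, with limma's unadjusted p of 0.0023 and 0.156. FKBP5 was also the one called gene whose RefSeq promoter window held AGAACA, the half-site that steroid receptors prefer. The window ran from 250 bases before to 50 after the annotated start (GRCh38.p14). The stretch around the start, chr6:35728566-35728595 on the minus strand, is shown because it holds that match, in capitals, beginning at the start base itself.
FKBP5: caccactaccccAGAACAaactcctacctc

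The half-site was searched on both strands and stood in 11.3% of the 15382 promoter windows matched. It stood in 1 of the 12 windows of genes called higher and in 0 of the 13 of genes called lower. A match in so short a window is a description of the letters and no evidence of binding. Promoter windows matched 12 of the 21 higher and 13 of the 14 lower genes.

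UGT2B28, one of the enzymes that attach glucuronic acid to steroids, read 7.72 and 7.76 with vehicle and 8.76 and 8.53 with DHT. Both DHT arrays were above, with a change of 0.90 ± 0.13, but its probe set is of the kind that can match several transcripts, and the UGT2B genes are close copies, so which of them was read is uncertain. HSD11B2, the enzyme that inactivates cortisol, read 7.63 and 7.85 with vehicle and 8.41 and 8.58 with DHT. It lay clear of vehicle on both DHT arrays and rose by 0.75 ± 0.10 or 1.69-fold. These were the 2 calls among 29 measured genes of steroid metabolism and glucuronidation, whose median change was 0.00. RDH10, which oxidises retinol on the way to retinoic acid, rose by 0.56 ± 0.09, from 9.70 and 9.63 to 10.24 and 10.20. C1orf116, known as a specifically androgen-regulated gene, read 8.04 and 8.0 with vehicle and 8.71 and 8.72 with DHT, with replicates nearly equal in both groups and a change of 0.70 ± 0.09. The adjusted p of these genes was 0.0212 for UGT2B28, 0.0171 for HSD11B2, 0.0443 for RDH10 and 0.0124 for C1orf116.

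EAF2, a partner of the ELL elongation factors and an androgen target in prostate cells, read 8.52 and 8.46 with vehicle and 9.47 and 9.25 with DHT. It rose by 0.87 ± 0.12, and its other probe sets, far dimmer, changed by 0.13 and 0.17. EAF2 was the only call among 20 genes of elongation factor complexes. In the same list HEXIM1, which inhibits the elongation kinase P-TEFb, changed by -0.51 with no call (adjusted p = 0.104). ADAMTS1, a secreted metalloprotease, read 8.11 and 7.98 with vehicle and 8.87 and 8.84 with DHT. It rose by 0.82 ± 0.11, and its other probe set changed by 0.84. PRAG1, a pseudokinase scaffold of signalling, read 9.69 and 9.98 with vehicle and 10.69 and 10.62 with DHT. Its vehicle arrays were the furthest apart of any gene called, and both still lay below the DHT arrays. CHPT1, which makes phosphatidylcholine, rose from 10.61 and 10.62 to 11.36 and 11.33, a change of 0.73 ± 0.10. Adjusted p values were 0.0171 for EAF2 and 0.0153 for each of ADAMTS1, PRAG1 and CHPT1. SINHCAF, a subunit of the SIN3 histone deacetylase complex, FJX1, a secreted homologue of the fly four-jointed protein, and PRR15L rose by 0.58, 0.62 and 0.55, with adjusted p of 0.0408, 0.0275 and 0.0408.

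The next 5 genes were placed together after their values were seen, and only NOP16 and BYSL stand on the ribosome biogenesis list. CCDC86, a nucleolar protein, read 9.83 and 9.96 with vehicle and 10.77 and 10.74 with DHT. Both DHT arrays were above by a wide margin, a change of 0.86 ± 0.09 with an adjusted p of 0.00363. POLR3E, a subunit of the RNA polymerase that makes transfer RNA and the smallest ribosomal RNA, read 10.76 and 10.79 with vehicle and 11.45 and 11.56 with DHT. It rose by 0.73 ± 0.09 (adjusted p = 0.0143). NOP16, a nucleolar protein of the large ribosomal subunit's assembly, read 10.43 and 10.26 with vehicle and 10.97 and 11.07 with DHT, and BYSL, which acts in making the small subunit, read 9.77 and 9.68 with vehicle and 10.43 and 10.29 with DHT. PUS1, which forms pseudouridine in transfer RNA, rose from 8.44 and 8.45 to 9.11 and 9.10. The changes of these 3 were 0.67, 0.64 and 0.66, with adjusted p between 0.022 and 0.0257. The other probe sets of POLR3E changed by 0.51, 0.26 and 0.00, and those of NOP16 by 0.51, 0.05 and 0.17.

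Of the 35 measured genes of ribosome biogenesis, NOP16 and BYSL were called, and none was called lower. In a fit of the 4 arrays of vehicle and DHT 4 h alone, 0 of the 35 were called. The other members had small changes of mostly 1 sign. Of the 35, 32 lay above 0, with a median of 0.22, against 10070 of 19775 and a median of 0.00 over all genes. The 4 arrays were apart on the higher side in 29, or 82.9%, against 19.4% of all genes. WDR43, a factor of the early small-subunit precursor, had the largest change of the list at 0.76 but an adjusted p of 0.0986, with DHT arrays at 9.38 and 9.0. POLR1B, a subunit of RNA polymerase I, changed by 0.59 and DDX21, a nucleolar helicase, by 0.51, both with no call. The abundant nucleolar proteins did not share the size of these values, with 0.04 for NCL, -0.09 for NPM1 and 0.00 for FBL. Under the scaling alternatives 32 or 33 of the 35 lay above 0 and the median ran from 0.22 to 0.25.

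The E-box CACGTG, the letters that MYC and MAX and several other factors bind, stood in 4 of the 12 promoter windows of higher genes and in 1 of the 13 of lower genes, against 8.9% of all windows. The letters are a palindrome, so both strands read alike, and the counts are too small for a statement on the set. The stretches of the 4 higher genes, which hold these matches, lie at chr6:41921515-41921544 (plus strand, BYSL), chr11:60842013-60842112 (plus, CCDC86), chr16:22297396-22297425 (plus, POLR3E) and chr11:35618330-35618429 (plus, FJX1), with the E-box in capitals.
BYSL: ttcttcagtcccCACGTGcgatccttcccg
CCDC86: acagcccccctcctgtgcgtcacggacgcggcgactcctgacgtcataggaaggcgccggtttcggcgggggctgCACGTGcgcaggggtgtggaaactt
POLR3E: cccgctccccccCACGTGtccgccggagtt
FJX1: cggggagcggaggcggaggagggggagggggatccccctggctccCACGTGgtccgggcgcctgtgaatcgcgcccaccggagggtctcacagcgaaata

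**Figure D2:**
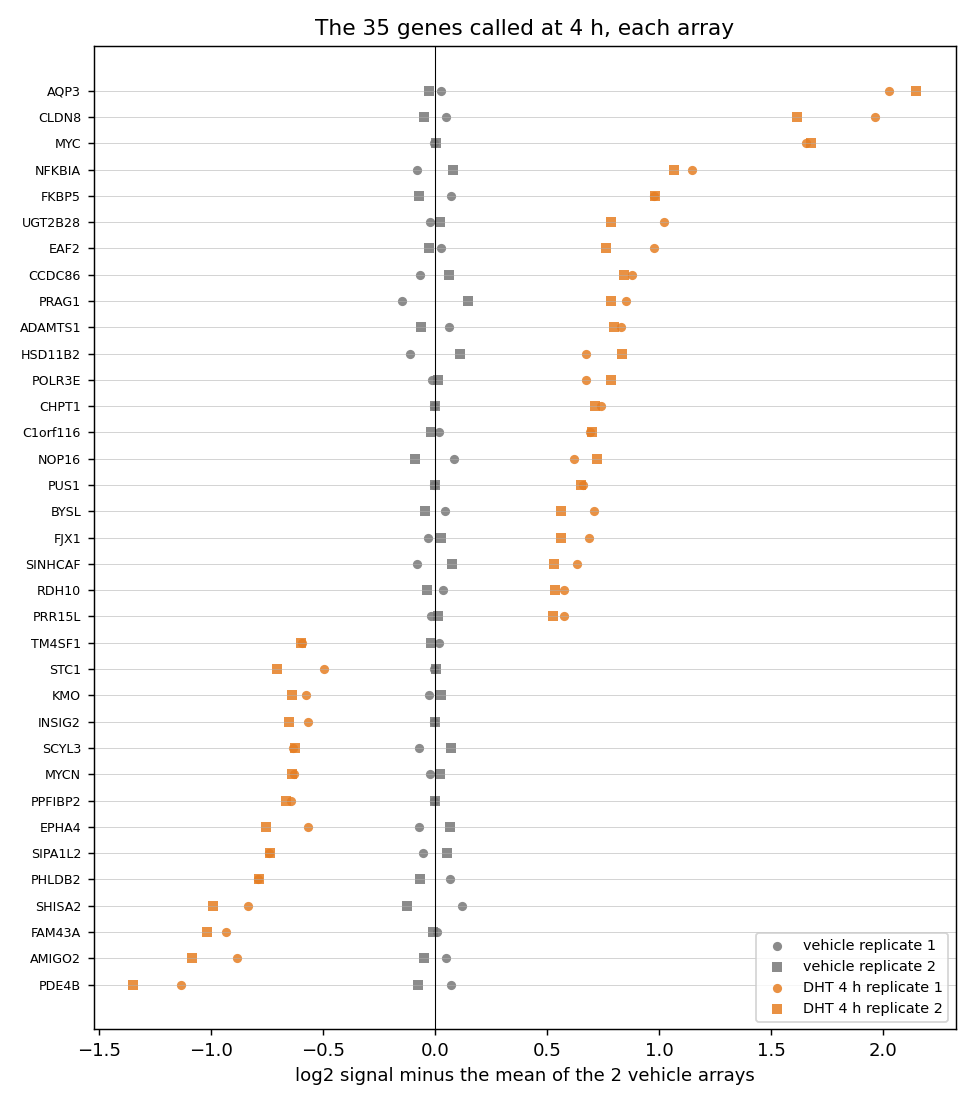
The 35 genes called at 4 h, 1 per line, with the log2 signal of each of the 4 arrays minus the mean of the 2 vehicle arrays (x); grey marks are vehicle, orange marks are DHT 4 h, circles replicate 1 and squares replicate 2. In all 35 genes both orange marks lie on the same side of both grey marks.

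PDE4B led the genes that fell. It encodes a phosphodiesterase that breaks down cyclic AMP. Its signals were 10.01 and 9.87 with vehicle and 8.81 and 8.59 with DHT. Both DHT arrays were more than 1 log2 unit below both vehicle arrays, a change of -1.24 ± 0.10 or 2.36-fold lower, with an adjusted p of 0.00053. Its other 2 probe sets changed by -0.60 and -0.36. It was the only call among 28 measured genes of cyclic AMP signalling, where the next largest change was -0.30 for PRKAR1A, a regulatory subunit of protein kinase A.

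AMIGO2, an adhesion protein with immunoglobulin and leucine-rich repeats, read 10.97 and 10.87 with vehicle and 10.03 and 9.84 with DHT. It fell by 0.98 ± 0.11 on the log2 scale (adjusted p = 0.00423), with both DHT arrays well below. FAM43A read 10.15 and 10.14 with vehicle and 9.21 and 9.12 with DHT, and fell by 0.97 ± 0.10 (adjusted p = 0.00252). Its other probe set, which was dimmer, changed by -0.01. SHISA2, a protein of the endoplasmic reticulum that holds back WNT and FGF receptors, read 9.60 and 9.35 with vehicle and 8.64 and 8.49 with DHT. Its replicates were more spread than those of FAM43A, and the groups stayed apart, with a change of -0.91 ± 0.13 (adjusted p = 0.0212). EPHA4, a receptor for ephrins, read 9.99 and 10.13 with vehicle and 9.50 and 9.31 with DHT. It fell by 0.66 ± 0.11 (adjusted p = 0.0392) and was the only call among 21 ephrins and Eph receptors, whose median was 0.00, and where EPHA2 had 0.40 with no call. TM4SF1, a surface protein of the tetraspanin-like kind, was among the brightest genes called, at 14.02 and 13.98 with vehicle and 13.41 and 13.40 with DHT. It fell by 0.59 ± 0.09 (adjusted p = 0.0304), and 3 of its other 4 probe sets changed by -0.69 to -0.99.

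EPHA4 alone among the called genes held, in its promoter window, the androgen palindrome in its loose form, which is GNACA and TGTNC spaced by 3 bases. It stood in 0.312% of all windows, in 0 of 12 of the higher and in 1 of 13 of the lower genes. A stretch of 100 bases upstream of the start, chr2:221574204-221574303 on the minus strand, are shown with the match in capitals. The forkhead letters TGTTTAC, searched on both strands, stood in 0 of the 12 and 0 of the 13 windows and in 2.62% of all. PPFIBP2, the lower gene with an E-box, is shown beside it at chr11:7513891-7513990 on the plus strand.
EPHA4: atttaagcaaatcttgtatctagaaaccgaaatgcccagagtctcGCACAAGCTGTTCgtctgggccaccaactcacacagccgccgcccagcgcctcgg
PPFIBP2: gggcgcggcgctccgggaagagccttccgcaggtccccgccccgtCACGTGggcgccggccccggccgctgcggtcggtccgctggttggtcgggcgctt

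PHLDB2, which anchors microtubules at the cell cortex, read 8.38 and 8.25 with vehicle and 7.52 and 7.53 with DHT. It fell by 0.79 ± 0.13 on the probe set used. Its other probe sets, all dimmer, changed by 0.04, -0.52, 0.15 and 0.14, so most did not share the fall. SIPA1L2, a GTPase-activating protein for Rap, read 12.07 and 12.18 with vehicle and 11.39 and 11.40 with DHT. The DHT arrays were nearly equal and clearly below, with a change of -0.74 ± 0.10. PPFIBP2, a liprin, read 10.62 and 10.62 with vehicle and 9.98 and 9.96 with DHT and fell by 0.65 ± 0.09. SCYL3, a pseudokinase, read 10.35 and 10.49 with vehicle and 9.78 and 9.79 with DHT. It fell by 0.63 ± 0.10, and its other 2 probe sets changed by -0.78 and -0.85. Adjusted p was 0.0392 for PHLDB2, 0.0159 for SIPA1L2, 0.022 for PPFIBP2 and 0.0406 for SCYL3.

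INSIG2, which keeps the sterol-sensing SREBP system in the endoplasmic reticulum, read 10.81 and 10.81 with vehicle and 10.24 and 10.16 with DHT, a change of -0.61 ± 0.09 (adjusted p = 0.022). KMO, an enzyme of kynurenine metabolism, read 11.20 and 11.25 with vehicle and 10.65 and 10.58 with DHT. It fell by 0.61 ± 0.09 (adjusted p = 0.0293) and its other 2 probe sets changed by -0.49 and -0.46. STC1, a secreted glycoprotein, fell by 0.60 ± 0.10 (adjusted p = 0.0408), from 9.50 and 9.51 to 9.01 and 8.80, while its other 2 probe sets changed by -0.25 and -0.10. MYCN read 8.26 and 8.31 with vehicle and 7.66 and 7.65 with DHT on the probe set used, a change of -0.63 ± 0.10 with an adjusted p of 0.0309. None of its other 9 probe sets shared this value, with changes from -0.01 to 0.18, so the fall rests on 1 probe set.

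Called genes were compared in how long they are and where they lie. The higher genes spanned a median of 14.2 kb from start to end, with 13 of 21 under 20 kb and 1 over 100 kb, which was FKBP5 at 155 kb. The lower genes spanned a median of 33.6 kb, with 6 of 14 under 20 kb and 5 over 100 kb, of which PDE4B was the longest at 582 kb. Over all genes the median was 24.7 kb, with 44.3% under 20 kb and 16.9% over 100 kb. The higher genes lay on 13 chromosomes and the lower genes on 7. All 35 code for protein.

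Reading of a gene by more than 1 probe set gave a check on the array itself. The called genes had 54 further probe sets over 21 genes, of which 43 changed in the same direction as the one used and 11 in the other. At an unadjusted p below 0.05, 27 of them changed the same way and 0 the other way. None passed the adjustment over all 41091 probe sets that name 1 gene, and 24 reached at least 50% of the change of the one used.

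The 6 largest changes without a call on each side had SEs from 0.13 to 0.40, and those of called genes reached 0.13. FOLR1, the folate receptor, changed by 1.20, with vehicle arrays at 12.18 and 11.57 and DHT arrays at 13.08 and 13.08 (adjusted p = 0.473). The vehicle arrays alone differed by more than 0.6. H3-3A, a histone, changed by 0.83, with vehicle arrays as far apart as 10.75 and 12.08. TOX3, a chromatin protein of luminal breast cells, was at 0.74 with an adjusted p of 0.0559, CARMIL1, an actin regulator, at 0.75 with 0.0796, and ADRA2A, an adrenergic receptor, at 0.73 with 0.0986. On the lower side stood SOX9, a factor of epithelial progenitors, at -0.85 with an adjusted p of 0.0543, SYTL2 at -0.79 with 0.0605, IRS1, an adaptor of the insulin receptor, at -0.73 with 0.0715, and CXCR4, a chemokine receptor, at -0.69 with 0.0715. DOCK2 at -0.99 and CCDC186 at -0.81 had replicates further apart, with adjusted p of 0.0991 and 0.152. Both DHT arrays lay on 1 side of both vehicle arrays in each of these genes. They were picked for large changes on these same arrays, so this adds no support.

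Most genes listed as androgen targets in prostate cells had no call. Of 35 measured genes of the classical androgen response, FKBP5 and ADAMTS1 were called higher, against 0.106% of all genes. In this list 19 lay above 0 and the median was 0.01. EAF2 and C1orf116, described above as androgen-regulated, were called but are not counted in this list. KLK3, the gene of prostate-specific antigen, differed by 0.01 ± 0.09, at 10.37 and 10.40 with vehicle and 10.39 and 10.39 with DHT. Its probe set, the brightest of 3, is of the kind that can match several transcripts, so which transcript gave this signal is uncertain. TMPRSS2, a surface protease, had a change of -0.02 ± 0.10, and its groups overlapped. Among 22 genes of the steroid response shared with glucocorticoids, NFKBIA and FKBP5 were called, 16 lay above 0 and the median was 0.06. The 4 arrays were apart on the higher side in 36.4% of these genes and on the lower side in 9.09%, against 19.4% and 20.8% of all genes. The glucocorticoid receptor gene NR3C1 changed by -0.15 ± 0.10 with no call. Of 22 chaperones and coregulators of the androgen receptor, FKBP5 alone was called, and NCOA2, a coactivator, had -0.37 with no call.

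**Figure D3:**
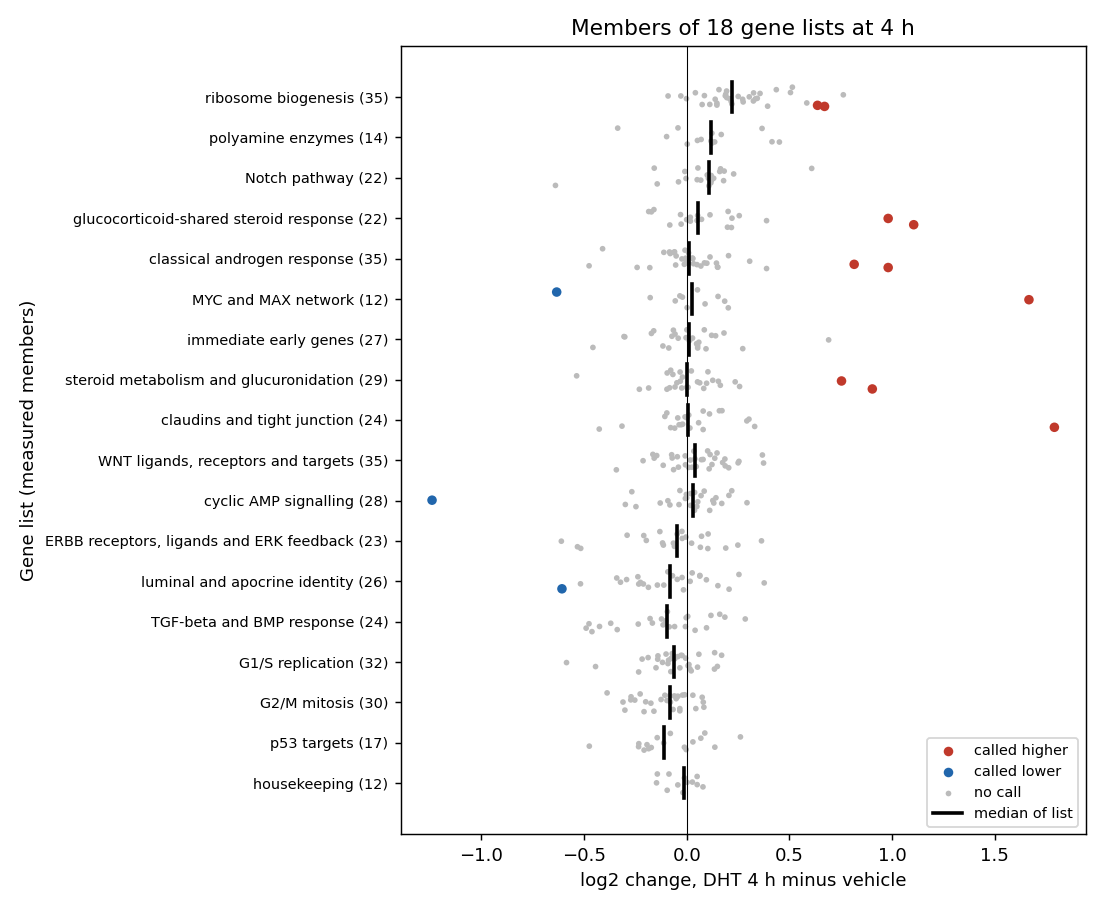
The log2 change from vehicle to 4 h of DHT (x) of each measured member of 18 gene lists (y, number measured in brackets); red points were called higher, blue points called lower, grey points had no call, and the black bar is the median of the list. The ribosome biogenesis list has its median at 0.22 and the largest single values belong to CLDN8 at 1.79 and MYC at 1.67.

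Growth factor and lineage genes held values near the threshold. Of 23 ERBB receptors, ligands and ERK feedback genes, 0 were called and 8 lay above 0. Over all genes 0.106% were called higher and 0.0708% lower. The feedback phosphatases DUSP6 and DUSP4 stood lowest, at -0.61 and -0.53, with adjusted p of 0.0595 and 0.0788. ERBB2 changed by -0.12 ± 0.09 and ERBB3 by -0.11 ± 0.10. Of 26 genes of luminal and apocrine identity, KMO was called lower, 9 lay above 0 and the median was -0.08. FOXA1, the pioneer factor, read 12.36 and 12.51 with vehicle and 11.91 and 11.92 with DHT. Both DHT arrays were below, yet its adjusted p was 0.0715. PIP, an apocrine secretory protein, had -0.02 ± 0.09 and overlapped.

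Other signalling lists gave no or 1 call, where 0.106% of all genes were called higher and 0.0708% lower. A count of 0 in so short a list says little about its genes. Of 35 WNT ligands, receptors and targets 0 were called, with 0.37 for both DKK1, an inhibitor, and WNT7B, a ligand whose groups were apart (adjusted p = 0.431). In the Notch pathway 0 of 22 were called. NRARP, a feedback inhibitor, stood at 0.61 and DLL1, a ligand, at -0.64. Of 24 genes of the TGF-beta and BMP response 0 were called and 7 lay above 0, with SMAD4 at -0.49 and ID2 at -0.48. Immediate early genes had 0 calls of 27, and KLF4 was the nearest, at 0.69 with an adjusted p of 0.0542. AQP3 and CLDN8 were each the only call of their own family lists, 11 aquaporins and 24 claudins and tight junction genes, in which MIP had 0.20 and CLDN4 -0.43 without a call.

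Cell cycle genes had no call at 4 h, which with 0.106% of all genes called higher and 0.0708% lower is no result about them. Of 30 measured genes of G2/M, 5 lay above 0, the median was -0.08, and the 4 arrays were apart on the lower side in 16, or 53.3%, against 20.8% of all genes. BUB1, a checkpoint kinase, had the largest change, -0.39 ± 0.13. Of 32 genes of G1/S replication 10 lay above 0, with a median of -0.06 and E2F8 lowest at -0.59. Under the scaling alternatives 5 to 7 of the G2/M genes lay above 0, and 10 did without DHT 4 h replicate 2. Of 17 p53 targets 5 lay above 0 and the median was -0.11, with TP53INP1 at -0.47 and MDM2 at 0.26, neither called. The 4 arrays were apart on the lower side in 35.3% of the p53 targets and on the higher side in 17.6%.

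Stress, metabolic and timing lists had 0 calls as well, against 0.106% of all genes called higher and 0.0708% lower. Lists of this size would mostly hold none at those shares. These were 24 genes of the unfolded protein response and heat shock, 21 of hypoxia and glycolysis, 21 of cholesterol and fatty acid synthesis, 22 of the interferon response, 17 of the circadian clock, 20 of the BCL2 family, 14 polyamine enzymes and 25 integrins and focal adhesion genes. Their medians lay between -0.05 and 0.12. Among their leading members were -0.62 for GBP2, an interferon-induced GTPase, 0.45 for AMD1 and 0.42 for SRM, both enzymes of polyamine synthesis, and 0.34 for ACSL1, which activates fatty acids. Of the 12 housekeeping genes measured 0 were called, and their changes ran from -0.15 to 0.08.

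Markers of other cell types did not move beyond the threshold. None of the 3 basal, 8 mesenchymal and stromal, 4 immune, 4 endothelial and 5 prostate epithelial markers measured was called. Of all genes 0.106% were called higher and 0.0708% lower, so these zeros say little. EGFR, on the basal list, had the largest value, -0.52 ± 0.15 with an adjusted p of 0.362, and SLC45A3, on the prostate list, had -0.41 with 0.345. KRT14, a basal keratin, stood at 5.70 and 6.24 with vehicle, LYZ at 5.56 and 5.74 and CDH5 at 5.08 and 4.97, all below 6.8, the upper end of the dimmest 3955 genes. Other members were brighter, and a mean signal of at least 8 was reached by 2 of the 3 basal, 6 of the 8 mesenchymal and stromal, 1 of the 4 immune, 1 of the 4 endothelial and all 5 prostate markers. Luminal and apocrine markers had 1 of 8 above 0, with GATA3, a luminal transcription factor, at -0.23 and AZGP1, an apocrine secretory protein, at 0.21, neither called.

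Most of the called genes went on moving. The later times were set against 4 h, a comparison that shares the 4 h arrays with the change described above. Between 4 h and 16 h 254 of all genes rose, or 1.28%, and 350 fell, or 1.77%, and between 4 h and 48 h the shares were 2.41% and 3.72%. Of the 35 early genes, 16 had moved further in the same direction by 16 h, 2 had moved back and 17 had no call. At 48 h 19 had moved further, 7 back and 9 had no call. FKBP5 stood at 13.14 and 13.25 at 16 h and at 13.97 and 14.18 at 48 h, so each later pair of arrays lay above the earlier one (adjusted p against 4 h of 1.42e-05 and 1.67e-07). AQP3 stood at 14.76 and 14.99 at 48 h, near the top of the array's range.

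MYC took another course. It stood at 12.05 and 11.65 at 16 h and at 11.60 and 11.79 at 48 h, below both 4 h arrays at each time and still above vehicle. The step from 4 h was -0.36 at 16 h (adjusted p = 0.193) and -0.52 at 48 h (adjusted p = 0.0337). RDH10 turned round, from 10.24 and 10.20 at 4 h to 9.01 and 9.08 at 16 h and 8.76 and 8.89 at 48 h, below the vehicle arrays. STC1 returned to 9.58 and 9.62 at 16 h, close to vehicle. FJX1, PUS1, SINHCAF and MYCN also moved back by 48 h. CCDC86, NOP16, BYSL and POLR3E had no call in either direction after 4 h. PDE4B held level from 4 h to 16 h, at 8.80 and 8.85, and then fell further, to 7.87 and 7.76 at 48 h.

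**Figure D4:**
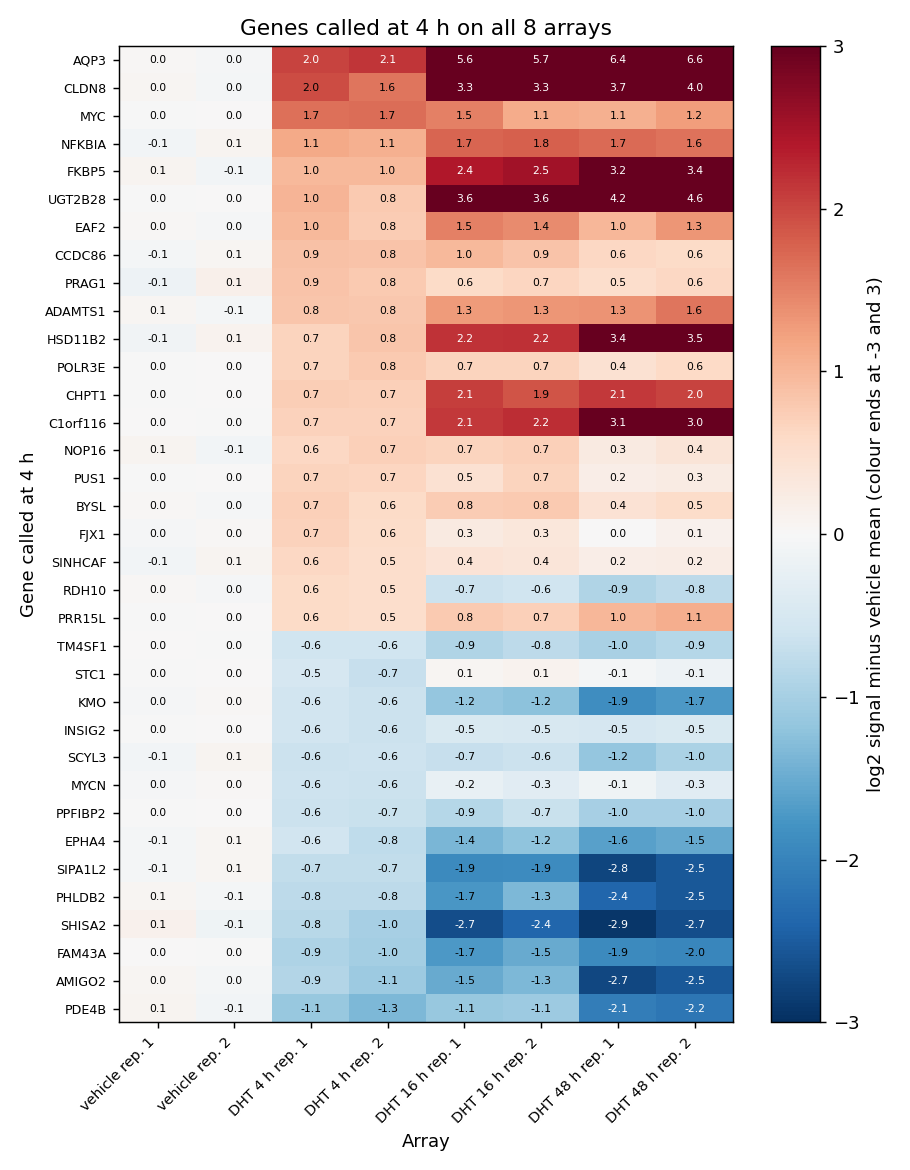
The log2 signal minus the vehicle mean (colour and printed value) of the 35 genes called at 4 h (rows) on all 8 arrays (columns), with colours ending at -3 and 3. AQP3 and FKBP5 darken from 4 h to 48 h, MYC is darkest at 4 h, and RDH10 changes colour between 4 h and 16 h.

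The calls were then read with 1 array left out. Without 1 of the vehicle or DHT 4 h arrays, that group kept 1 array and the residual degrees of freedom fell from 4 to 3. A call is then harder to reach, whichever array is left out. Without 1 of the 16 h or 48 h arrays, that group gave no spread. Its 2 settings therefore gave the same calls, equal to leaving out both arrays, and are not separate checks. Leaving out each of the 8 arrays in turn kept the call of 5 genes throughout, which were AQP3, CLDN8, MYC, PDE4B and NFKBIA. The other 30 lost it at least once. The 35 calls came down to 7 without vehicle replicate 1, 11 without vehicle replicate 2, 7 without DHT 4 h replicate 1 and 5 without DHT 4 h replicate 2. Without either 48 h array, which enters this fit only through the spread, 18 were kept, with the probe sets left as chosen. Without either 16 h array all 35 were kept and the counts were 31 higher and 29 lower. The 16 h arrays differed most from each other, with an SD of the difference of 0.21. A gene that missed the call is therefore not shown to be unchanged.

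**Figure D5:**
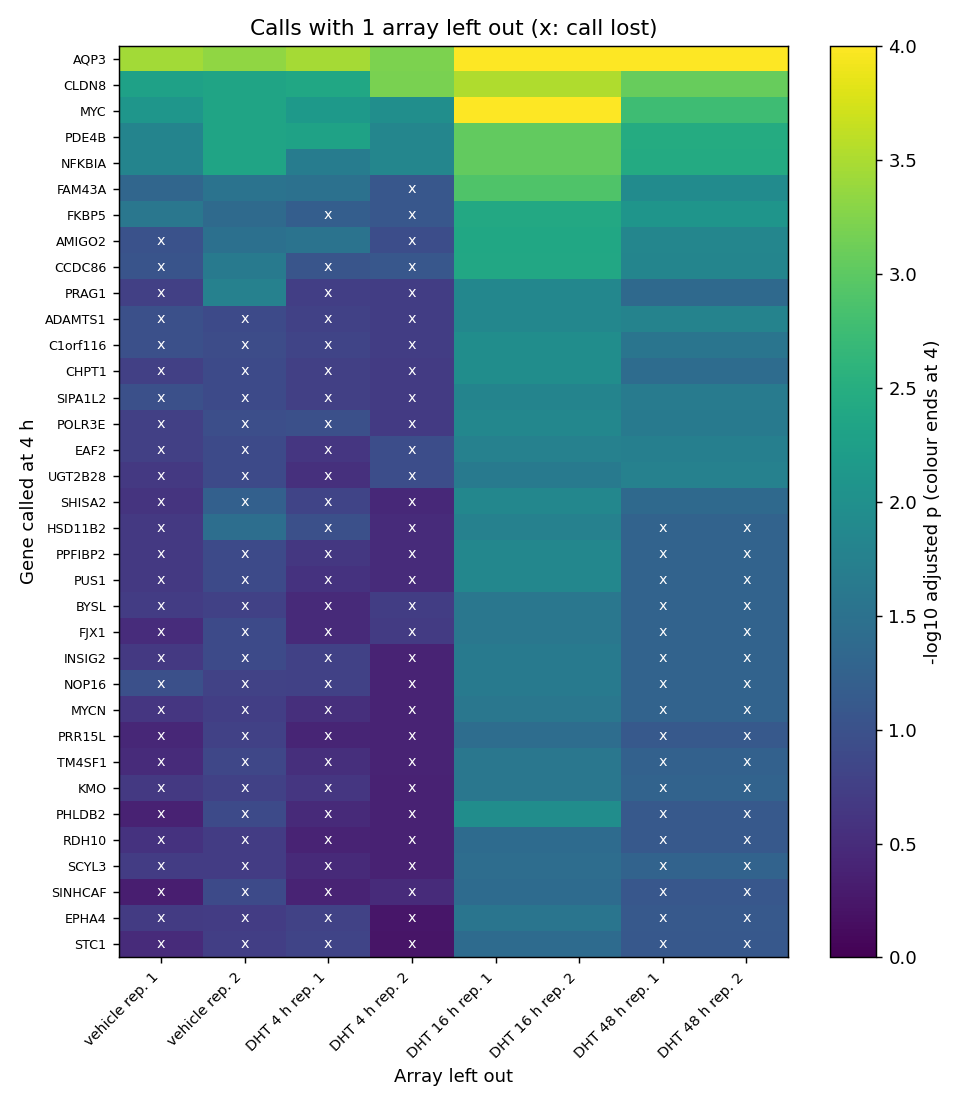
The -log10 of limma's adjusted p (colour, ending at 4) for the 35 genes called at 4 h (rows) after leaving out the array named under each column; a cross marks a call that was lost. The top 5 rows, AQP3, CLDN8, MYC, PDE4B and NFKBIA, have no cross, and the 2 columns of the 16 h arrays have none.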

How the data were processed

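Total RNA was hybridised to HG-U133 Plus 2.0 arrays (8 arrays, 4 groups of 2). The deposited table holds log2 values of 54675 probe sets, which the authors made by RMA (robust multi-array average), per the submitters' processing notes; the version is not given in the sources. No further normalisation was applied. Control probe sets (62) were left out. Of the rest, 41091 named 1 gene, 1801 several and 11721 none. Of the genes, 5716 were read by probe sets ending in _s_at or _x_at, which can match several transcripts.

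The 4 group means were fitted to all 8 arrays with limma 3.58.1 (R 4.3.3), two-sided, with 4 residual and 7.21 prior degrees of freedom and Benjamini-Hochberg adjustment over 19775 genes. The call was an adjusted p below 0.05. An exact permutation test of 2 against 2 arrays cannot go below 0.333, so none was run. The labels do not say whether replicate numbers pair the arrays, so the main fit held no block. Deviations of same-numbered arrays correlated from -0.244 to 0.196, with 0.162 for vehicle and DHT 4 h. With 2 arrays a group these values cannot exclude pairing. The fit was tested on simulated data.

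Genes, 37 lists and 20 families were chosen with earlier results of these data known, so they are not independent evidence. Of 773 listed genes, 698 were measured. The text names all called genes, the 6 largest changes without a call on each side, up to 2 leading members of a list, and some reference genes. Other list members were added after their values were seen. Promoter sequences are from RefSeq (GRCh38.p14). Alternatives varied the arrays, replicate block, scaling, filters, probe sets and moderation.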

Additional observations from a re-analysis of the deposited data

Results flagged for a closer look

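For 26 of the 35 genes called at 4 h, the level at 48 h differed from that at 4 h in limma (adjusted p below 0.05), and for 18 the level at 16 h did. All values here are log2 differences, and they share the 4 h arrays with the change at 4 h.

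From 4 h to 16 h the gain over 4 h was largest in AQP3, at 3.6. UGT2B28 added 2.69, C1orf116 1.48, CLDN8 and FKBP5 1.47 each, HSD11B2 1.41 and CHPT1 1.24. Smaller steps were 0.66 in NFKBIA, 0.59 in EAF2 and 0.48 in ADAMTS1. Among the genes already lower, SHISA2 changed by a further -1.61, SIPA1L2 by -1.16, PHLDB2 by -0.76, FAM43A by -0.65, EPHA4 by -0.63 and KMO by -0.58. RDH10 went back by -1.18 and STC1 by 0.69.

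From 4 h to 48 h AQP3 added 4.39 and UGT2B28 3.53. HSD11B2 added 2.71, FKBP5 and C1orf116 2.36 each, CLDN8 2.04 and CHPT1 1.34. ADAMTS1 added 0.66, NFKBIA 0.56 and PRR15L 0.49. Further lower were SIPA1L2 at -1.92, SHISA2 at -1.88, PHLDB2 at -1.68, AMIGO2 at -1.65, KMO at -1.20, FAM43A at -0.95, EPHA4 at -0.93, PDE4B at -0.88 and SCYL3 at -0.43. Movement back was seen in RDH10 (-1.40), FJX1 (-0.56), MYC (-0.52), PUS1 (-0.44) and SINHCAF (-0.37), and in STC1 (0.49) and MYCN (0.40).

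Among the probe sets to which the table gives no gene, which no comparison above uses, 2 were called higher at 4 h. Probe set 204541_at read 6.97 and 6.67 with vehicle and 8.61 and 8.68 with DHT, a change of 1.82 (limma's adjusted p = 0.00361). Probe set 230316_at read 7.64 and 7.6 with vehicle and 8.70 and 8.78 with DHT, a change of 1.12 (adjusted p = 0.0353). Both stood above 11 on the 48 h arrays.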

How the results depend on the processing

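Every called gene kept its direction under each alternative, except MYCN, whose change was 0.042 without probe sets ending in _s_at or _x_at; there another MYCN probe set is read. AQP3, CLDN8, MYC, PDE4B and CCDC86 kept their calls under each of the 15 alternatives other than leaving out 1 array (MYC where it had a probe set). NFKBIA lost its call without probe sets ending in _s_at or _x_at, where its change was 0.54. The counts were 21 higher and 14 lower. Leaving out 1 array gave 4 to 31 higher, 1 to 29 lower, and 12 to 18 of the called genes differing between 16 h and 4 h and 18 to 27 between 48 h and 4 h. Without both 16 h arrays 29 were lower (31 higher), and without both 48 h arrays 13 were higher and 6 lower. Array weights gave 38 and 36, an intensity trend 33 and 26, and trend with a robust prior 35 and 32. A mean signal of at least 8 gave 23 lower (30 higher). Without _s_at and _x_at probe sets 11 were higher and 7 lower, and 16 differed between 48 h and 4 h against 26. Testing all 41091 probe sets gave 6 and 2 genes, over more tests. For the other moved counts the cause was not tested. With the replicate number as a block, 16 were higher and 9 lower, and 24 of the 35 calls were kept. The 4 arrays of vehicle and DHT 4 h alone gave 17 and 11, with 22 of the 35 kept, and the mean of a gene's probe sets 17 and 15, with 24 kept. Dim genes have the least signal over background, and 0 of the dimmest 3955 were called.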

Other observations

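Gene families taken by symbol, 20 in number, held 0 genes called at 4 h, against 0.106% of all genes called higher and 0.0708% lower. Zinc finger proteins numbered 466, of which 200 lay above 0, with the 4 arrays apart on the lower side in 27.9%, against 20.8% of all genes. Ribosomal proteins numbered 58, of which 21 lay above 0, with 39.7% apart on the lower side, against the same 20.8%, and a median of -0.02. Of 22 dual-specificity phosphatases 15 lay above 0, with values from -0.61 to 0.54, and of 17 Kruppel-like factors 9 did, with values from -0.63 to 0.69. Solute carriers numbered 352, of which 202 lay above 0, and the highest was at 0.63. Centring on housekeeping genes moved the median of all genes from 0.00 to 0.03, as large as most family medians, so no direction is given for these families.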
